A study of Mus musculus with 3 samples.

Results

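The genes described here build, sulfate and carry heparan sulfate and chondroitin sulfate. They were followed in cultured mouse cells that the labels call aortic endothelial, with and without the serine/threonine kinase Pim1. The rule that picks them reads gene symbols and no measured values, although the set was proposed with earlier results of these data known. All non-control probes named Chst, Hs2st, Hs3st, Hs6st, Ndst, Ext1, Ext2, Extl, B3gat, B4galt7, Xylt, Csgalnact, Chsy, Galgt, Dse, Glce, Sulf1, Sulf2, Papss, Ust, Gpc1 to Gpc6 or Sdc1 to Sdc4 were taken. This gave 87 probes for 55 of the 19754 genes named on the array. No probe carried a Csgalnact or Galgt name. The pattern also took Chst8, Chst9, Chst10, B3gat1 and B3gat2, whose enzymes act mainly on other glycans.

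Heparan sulfate and chondroitin sulfate are glycosaminoglycans, long sugar chains built on a short linkage sugar attached to serines of a core protein. Heparan sulfate and chondroitin sulfate chains are then sulfated at defined positions, and the pattern of sulfate groups decides which growth factors, chemokines, protease inhibitors and matrix proteins bind. Syndecans, which span the membrane, and glypicans, which are held by a lipid anchor, carry heparan sulfate on the cell surface, where it forms part of the endothelial glycocalyx.

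Both genotypes were of the FVB/N strain, and the labels gave all donors as female and 12 weeks old. The cells had grown on gelatine-coated dishes and RNA was taken 24 hours after seeding. On each of the 3 arrays, which were of the 2-colour kind, Cy5 marked the Pim1-/- RNA and Cy3 the wild-type RNA. The labels called the 3 arrays biological replicates without saying whether the wild-type RNA was 1 pool, so p-values measure the spread between these arrays only. Dyes were not swapped, so dye and genotype cannot be told apart. Which part of Pim1 was deleted is not given in the labels.

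The Pim1 probe fell by 1.04 on the log2 scale in the knockout (SD 0.10, n = 3 arrays, limma adjusted p = 0.00301), and a probe outside the deleted part would check nothing. That probe still exceeded background on all 3 knockout arrays, at a mean of 7.34 against 8.37 in the wild type (log2 intensity). Both channels were labelled female, yet Xist, the RNA of the inactive X chromosome, was at least 168-fold lower in the knockout channel, and the Y-linked genes Eif2s3y and Ddx3y were at least 28.1-fold and 12.1-fold higher there. Sex and genotype therefore cannot be told apart in any ratio below. Of 23 endothelial markers, 9 exceeded background on every knockout array and 11 on every wild-type array, and Pecam1, Cdh5, Tie1, Erg and Sox17 exceeded it on none. Of the 11 tested, 3 rose (Eng, Egfl7 and Cd34) and 3 fell (Mcam, Fli1 and a probe named Ramp2, whose identity is in doubt as given below). Their median log2 ratio was −0.06. Their summed intensity was 74389 to 88293 in the knockout and 46171 to 52837 in the wild type, of which Cd34, a marker that fibroblasts also carry, made up 75.9% to 85.4% and 58.3% to 66.6%. Without Cd34 the sums were 12867 to 17963 and 16904 to 19812, which overlap. Those sums include the probe named Ramp2, at 11.73 to 12.50 in the knockout and 13.35 to 13.75 in the wild type (log2 intensity). The array files place that probe at chr19:5800526-5800585, and whether it reads Ramp2 was not checked. The overlap may therefore rest on a probe of another gene. Of 10 mesothelial and epithelial markers tested, 8 fell and none rose, and their summed intensity was 7096.3 to 7583.5 in the knockout against 73075 to 95180 in the wild type. The largest fall among them was that of Krt19 (log2 ratio −4.12), while Epcam and Muc16 were above background on no array. Of 15 fibroblast markers 9 rose and 1 fell, with summed intensities of 304180 to 345610 against 285270 to 314630. Without Col1a2, the brightest of them and the 1 that fell, the sums were 224770 to 263500 against 172700 to 179350, which do not overlap. Of 10 smooth muscle and pericyte markers tested 1 rose and 3 fell (31544 to 37695 against 39336 to 55185), with 1 of the 11 on the array above background nowhere. Acta2, which was not called, made up 77% to 81.5% of the knockout and 66.5% to 71.5% of the wild-type sum. Without Acta2 the sums were 6014.5 to 8660.5 against 13160 to 17159. Of 5 macrophage and leukocyte markers tested none rose and 2 fell (2514 to 2864.4 against 3832.9 to 5116.8), with 4 of 10 above background nowhere. Cd14, 1 of the 2 that fell, made up 61.9% to 66.4% of the knockout and 69.2% to 74.3% of the wild-type sum. Without Cd14 the sums were 918.81 to 961.96 against 1082.4 to 1576.3. The part of these cell type differences in the results below was not tested, and in RNA from whole cultures fewer cells of a type and less RNA per cell cannot be told apart.

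The results turn on 7 members that changed at least 2-fold and on genes whose probes read differently. The 60-base probes that measured the 7 are shown by their bases 31 to 60, 5′ to 3′, so that a reader can see which stretch of each transcript was read. The position is that of the whole probe as the array files give it, on mm8. No mm8 annotation was used, so the probes were not placed in exons.
Chst7, chrX:19254255-19254314, plus strand: tgtgaataagggccaagtgcagttgtgtct
Chst1, chr2:92415837-92415896, plus strand: ctatttggtttgtggtgagcttgtctgtct
Gpc1, chr1:94690540-94690599, plus strand: gtccttgtatgaattaaaggctggggacct
Sulf1, chr1:12845435-12845494, plus strand: aggaaccattgcatgtattttacctcgacg
Hs3st1, chr5:39902337-39902396, minus strand: atgaaggaacttaactattgcactgaaaaa
Chst11, chr10:82625451-82625510, plus strand: atagaatttaacatctctgtggagtgtgtg
Sdc4, chr2:164115821-164115880, minus strand: acaaaatgctcagtcaccatcccccgggca

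Falls of at least 2-fold were found in the sulfotransferases Chst7, Chst1 and Hs3st1, the endosulfatase Sulf1 and the glypican Gpc1. Rises of that size were found in the sulfotransferase Chst11 and the syndecan Sdc4. Of the 55 genes, 41 were tested, which required a probe with signal well above background in either channel on 2 or more arrays. At a Benjamini-Hochberg adjusted p of 0.05 over all tested probes (limma), 6 members rose and 8 fell. The 6 that rose were 14.6% of the members tested, beside 8.66% of all genes tested, and the 8 that fell were 19.5%, beside 11.4%. At least 2-fold changes were made by 7 members, 17.1% of those tested beside 6.69% of all genes. The median log2 ratio, knockout over wild type, was −0.04 over the 41 members and −0.02 over all 13460 genes tested. With the ratio of the scanner software, or with a background offset of 0, the split was 4 higher (9.76%) and 10 lower (24.4%). Of all genes tested, 7.38% were higher and 11.3% lower with the software's ratio, and 7.9% and 11.9% with the offset of 0. Without array 1, 8 members rose (19.5%, beside 21.1% of all genes tested) and 12 fell (29.3%, beside 21%). Without array 2, 2 rose (4.88%, beside 1.7%) and 6 fell (14.6%, beside 3.72%), and without array 3, 2 rose (4.88%, beside 1.32%) and 5 fell (12.2%, beside 3.32%). With median centring 3 rose (7.32%, beside 7.67%) and 6 fell (14.6%, beside 6.14%). The share of members that rose was thus below that of all genes without array 1 and with median centring.

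**Figure D1:**
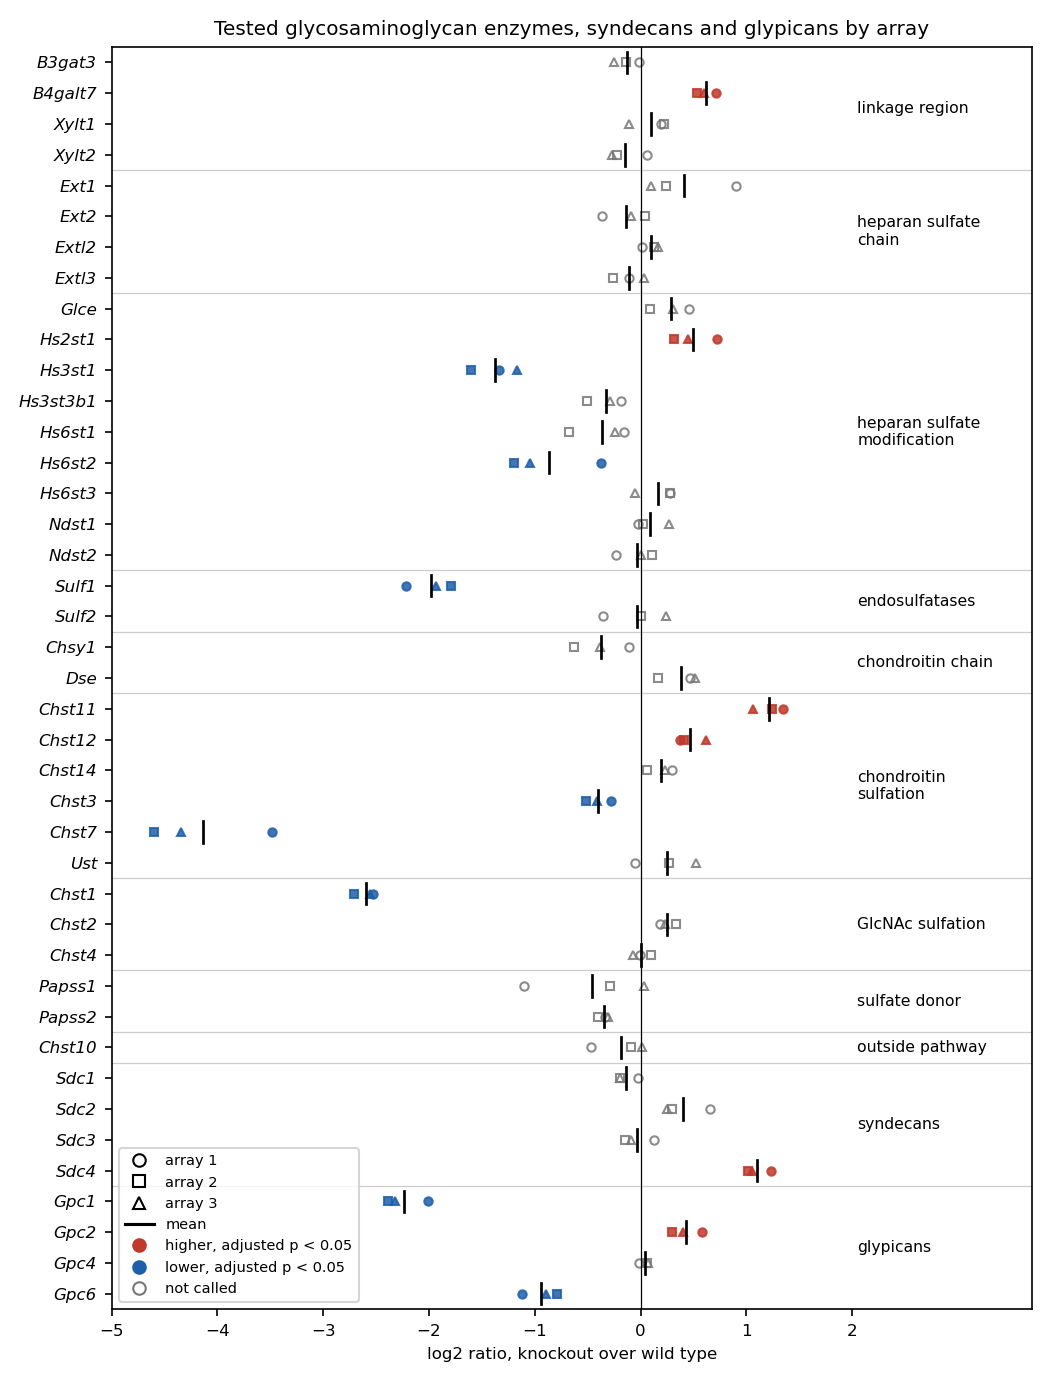
Log2 ratio (knockout over wild type) of the 41 tested members, grouped by role; points are the 3 arrays and bars the mean, coloured by call at a limma adjusted p of 0.05. The 7 members past 2-fold are Chst7, Chst1, Gpc1, Sulf1 and Hs3st1 on the low side and Chst11 and Sdc4 on the high side.

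The linkage region and the chain polymerases are described first, in the order of synthesis. Of the 4 linkage enzymes 1 rose. B4galt7, which adds the first galactose of the linkage sugar, read 0.71, 0.53 and 0.60 on the 3 arrays and rose 1.53-fold (log2 ratio 0.61 ± 0.09, SD, n = 3; limma adjusted p = 0.0137). All its knockout channel values (9.44 to 9.66, log2 intensity) lay above its wild-type values (8.88 to 8.95), although the call was lost without array 2 or array 3. The xylosyltransferases Xylt1 and Xylt2, which attach the first sugar to the core protein, had log2 ratios of 0.10 and −0.14 and did not pass. B3gat3, which completes the linkage with glucuronic acid, had −0.13 and did not pass.

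None of the 4 tested genes of heparan sulfate chain synthesis passed the test. Ext1 and Ext2 together form the polymerase that lengthens the chain. Ext1 read 0.90, 0.24 and 0.10, a mean of 0.41 with a 95% interval of −0.03 to 0.85 (limma adjusted p = 0.177), and array 1 stood apart from the other two. Ext2 had −0.14 (95% interval −0.42 to 0.15). Extl3, which starts the heparan sulfate chain, had −0.11 (−0.37 to 0.15), and Extl2 had 0.10 (−0.13 to 0.34). Except for Ext1, these intervals leave out a change of 0.5 on the log2 scale in either direction. Extl1 was not above background in either channel.

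Among the enzymes that modify heparan sulfate, 9 of 14 were tested, of which 1 rose and 2 fell. The largest change was in Hs3st1, whose 3-O-sulfate group completes the antithrombin binding site of anticoagulant heparan sulfate. Hs3st1 read −1.34, −1.61 and −1.17 on the 3 arrays. Its channel values were 7.15, 7.28 and 7.43 in the knockout and 8.50, 8.89 and 8.60 in the wild type, so the genotypes did not overlap. This was a 2.59-fold fall (log2 ratio −1.37 ± 0.22, 95% interval −1.67 to −1.08, limma adjusted p = 0.00231).

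Hs6st2, which adds 6-O-sulfate, read −0.37, −1.20 and −1.04, with array 1 closer to 0 than the others (mean −0.87 ± 0.44, limma adjusted p = 0.0297). One further Hs6st2 probe also fell (−0.68, adjusted p = 0.0308) and the third did not pass (−0.21, adjusted p = 0.266). The call was lost without array 2 or 3, with median centring and with no filter on dim probes. Its relatives Hs6st1 (−0.36, adjusted p = 0.13) and Hs6st3 (0.17, adjusted p = 0.364) did not pass. Hs2st1, which places the 2-O-sulfate on iduronic acid, read 0.72, 0.31 and 0.45 and rose 1.41-fold (0.49 ± 0.21, adjusted p = 0.0422), as did its other probe (0.44, adjusted p = 0.0379). That call too was lost without array 2 or 3, with median centring, with no filter, with an offset of 0 and with the scanner software's ratio. Ndst1 and Ndst2, which remove acetyl groups and put sulfate in their place at the start of modification, had 0.09 and −0.04 and did not pass. Glce, the epimerase that makes iduronic acid, had 0.28 and did not pass.

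Hs3st3b1, another 3-O-sulfotransferase, exceeded background on 3 arrays in wild-type RNA and on none in knockout RNA. It was at least 1.25-fold lower in the knockout and did not pass (adjusted p = 0.0958). The scanner software's ratio did call it, at −1.67 (adjusted p = 0.0143). Bounds of this kind set the mean wild-type value against the higher of the probe's own knockout value and the lowest signal above background, and are open to dye bias. Hs3st2, Hs3st3a1, Hs3st5, Ndst3 and Ndst4 were not tested.

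The endosulfatases Sulf1 and Sulf2 remove 6-O-sulfate from finished heparan sulfate outside the cell, and only their probes, not their proteins, were measured. Sulf1 read −2.22, −1.79 and −1.93, with knockout channel values of 8.60, 8.54 and 8.48 against 10.82, 10.33 and 10.41 in the wild type. The lowest wild-type value was thus well above the highest knockout value, and Sulf1 fell 3.95-fold (log2 ratio −1.98 ± 0.22, 95% interval −2.28 to −1.69, limma adjusted p = 0.000741). Sulf2 read −0.35, 0.00 and 0.24, changing sign between arrays (mean −0.03, 95% interval −0.38 to 0.31, adjusted p = 0.9). The intervals of the pair did not overlap, and the difference itself was not tested.

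**Figure D2:**
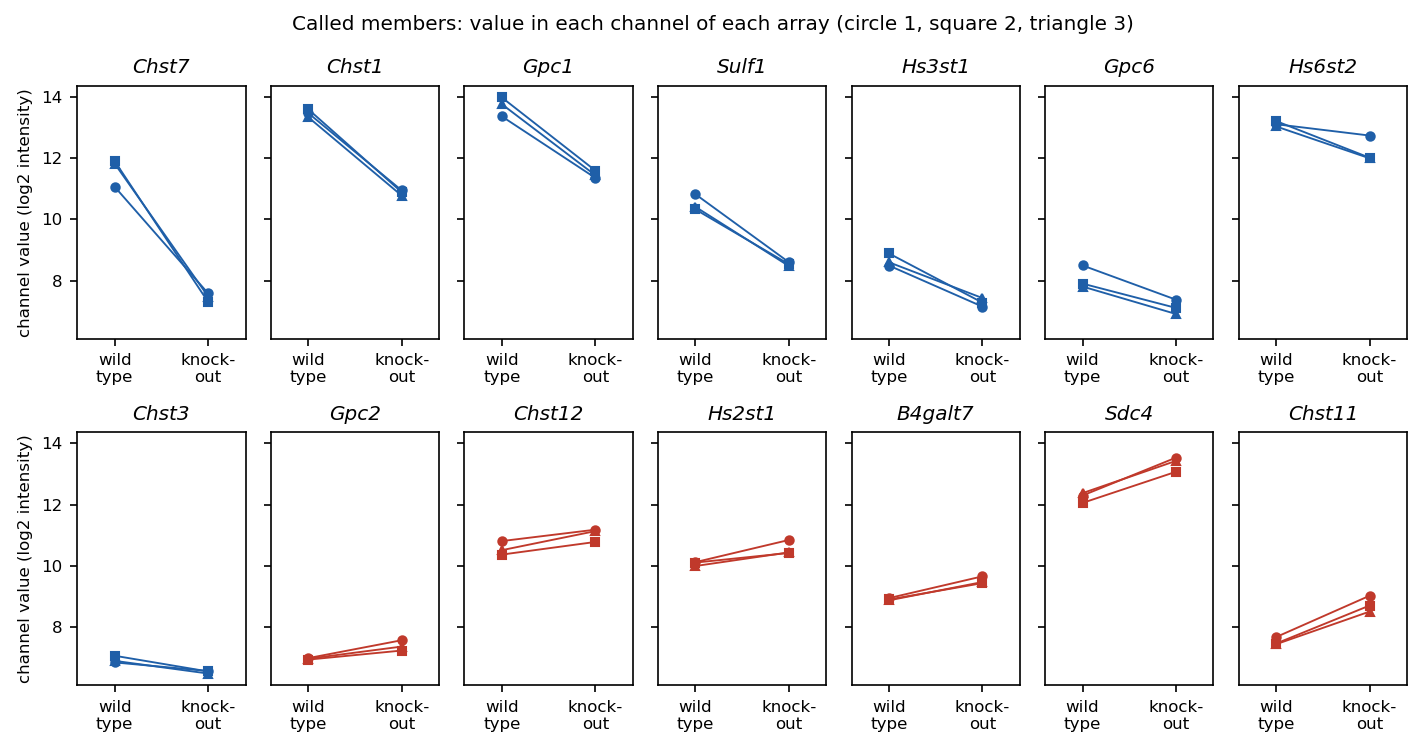
Channel values (log2 intensity after loess and Aquantile normalisation) of the 14 called members, 1 panel per gene, knockout beside wild type; each marker is 1 array and lines join the channels of an array. In 13 panels the genotypes do not overlap, and Chst12 is the exception. The panels show members called on these same arrays, so this adds no support to the calls, and the share over all genes is not given here.

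Members of the chondroitin and dermatan sulfate branch changed in both directions. Chst11 and Chst12, both chondroitin 4-O-sulfotransferases, rose, and Chst3 and Chst7, both chondroitin 6-O-sulfotransferases, fell. Of the 7 sulfotransferases of this branch 6 were tested, and the remaining pair, the dermatan 4-O-sulfotransferase Chst14 (0.19, limma adjusted p = 0.249) and the uronyl 2-O-sulfotransferase Ust (0.25, adjusted p = 0.284), did not pass. Chst13, a further 4-O-sulfotransferase, was not above background in either channel.

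Chst7 had the lowest log2 ratio of the members tested. It read −3.48, −4.60 and −4.34, with knockout channel values of 7.59, 7.30 and 7.48 and wild-type values of 11.07, 11.90 and 11.82. The fall was less deep on array 1, and on each array the knockout lay far below the wild type. Chst7 fell 17.6-fold (log2 ratio −4.14 ± 0.59, 95% interval −4.70 to −3.58, limma adjusted p = 0.000589), and by −4.81 on the log2 scale in the scanner software's ratio. Chst3 read −0.28, −0.51 and −0.41 and fell 1.32-fold (−0.40 ± 0.12, adjusted p = 0.0475). Its call was lost without array 2 or 3, with median centring and when both channels had to be above background, and the scanner software put it at −1.03.

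Chst11 read 1.35, 1.24 and 1.07. Its knockout channel values were 9.03, 8.71 and 8.51 and its wild-type values 7.68, 7.47 and 7.45, without overlap. It rose 2.33-fold (log2 ratio 1.22 ± 0.14, 95% interval 0.96 to 1.48, limma adjusted p = 0.00217). Its 2 other probes, which do not overlap the brightest one, also rose, by less (0.55 and 0.52, adjusted p = 0.0288 and 0.0351). Chst12 read 0.37, 0.41 and 0.62 and rose 1.38-fold (0.47 ± 0.13, adjusted p = 0.0342), although its knockout values (10.78 to 11.19) overlapped its wild-type values (10.37 to 10.81) across arrays. Its other probe did not pass (0.31, adjusted p = 0.0755), and the call was lost without array 2 or 3, with median centring, with an offset of 0 and with the scanner software's ratio.

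The pair of Chst12 probes share 22 bases, shown in capitals, so they are not independent measurements.
Chst12 dimmer probe, chr5:140777609-140777668, plus strand, bases 31 to 60: ttctaagaTTAATATATTTCAGATATATTT
Chst12 brightest probe, chr5:140777647-140777706, plus strand, bases 1 to 30: TTAATATATTTCAGATATATTTaatacgaa
Both probes read above 0 on each array.

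The chain enzymes of this branch did not pass. Chsy1, a chondroitin synthase, read −0.11, −0.63 and −0.38 (mean −0.37, adjusted p = 0.108). Dse, the epimerase that turns chondroitin into dermatan sulfate, read 0.47, 0.16 and 0.51 (mean 0.38, adjusted p = 0.0744). Each had 1 sign on all arrays, and both were called without array 1. Without that array, 21.1% of all genes tested were called higher and 21% lower.

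Of the 4 sulfotransferases that act on keratan sulfate or on N-acetylglucosamine, 3 were tested and 1 fell. Chst1, which sulfates galactose of keratan sulfate, read −2.53, −2.71 and −2.56, the smallest spread among the falls of at least 2-fold. Its knockout channel values were 10.95, 10.89 and 10.78 against 13.47, 13.60 and 13.34 in the wild type. It fell 6.06-fold (log2 ratio −2.60 ± 0.10, 95% interval −2.84 to −2.36, limma adjusted p = 0.000307). Chst2 and Chst4, whose products include sulfated ligands of L-selectin in lymph node vessels, had 0.25 (adjusted p = 0.132) and 0.01 (adjusted p = 0.965). Neither passed, and Chst5 was not tested.

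All these sulfotransferases draw on one donor, which Papss1 and Papss2 make from sulfate. Papss1 read −1.11, −0.29 and 0.03, so that arrays disagreed in sign (mean −0.45 ± 0.59, 95% interval −1.02 to 0.11, limma adjusted p = 0.233). It is the one uncalled member whose interval reaches beyond 1 on the log2 scale. Papss2 read −0.34, −0.40 and −0.31 (mean −0.35, adjusted p = 0.0559) and did not pass, though the scanner software's ratio called it at −1.16 (adjusted p = 0.0187).

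Of the syndecans, 1 of 4 rose and none fell. Sdc4, the syndecan found in focal adhesions, read 1.24, 1.02 and 1.05. Its knockout channel values were 13.54, 13.08 and 13.43 and its wild-type values 12.30, 12.06 and 12.38, without overlap. It rose 2.15-fold (log2 ratio 1.10 ± 0.12, 95% interval 0.86 to 1.35, limma adjusted p = 0.00262), and its other probe rose too (0.81, adjusted p = 0.0157). Sdc1, the main syndecan of epithelia, read −0.03, −0.20 and −0.19 (mean −0.14, 95% interval −0.38 to 0.10, adjusted p = 0.388). Sdc3, known from nerve and muscle, had −0.04 (−0.30 to 0.22, adjusted p = 0.853). Neither passed, and both intervals leave out a change of 0.5.

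Sdc2, a syndecan of mesenchymal and endothelial cells, gave readings that depended on the probe. The brightest probe read 0.65, 0.30 and 0.25 (mean 0.40, 95% interval 0.11 to 0.70, adjusted p = 0.0758) and the other 0.00, −0.23 and −0.24 (mean −0.16, adjusted p = 0.361). Neither passed. Their difference was 0.56 with an SD of 0.08 over the 3 arrays and had 1 sign on each, and 3 arrays allow no exact two-sided p below 0.25. The probes lie 1850 bases apart.
Sdc2 brightest probe, chr15:32977128-32977187, plus strand, bases 31 to 60: gagcactgaacttttcaaaataaagctttg
Sdc2 other probe, chr15:32979038-32979097, plus strand, bases 31 to 60: attacagctgtaattcaccatgttaaaagg
The sequences show that the probes read different stretches of the transcript.

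Of the 6 glypicans 4 were tested, of which 1 rose and 2 fell. Gpc1, the glypican best known from vascular endothelium, read −2.01, −2.39 and −2.32. Its knockout channel values were 11.36, 11.60 and 11.45 and its wild-type values 13.37, 13.98 and 13.76. The genotypes stood far apart on each array, a 4.72-fold fall (log2 ratio −2.24 ± 0.20, 95% interval −2.52 to −1.95, limma adjusted p = 0.000502). Gpc6 read −1.12, −0.79 and −0.90 and fell 1.91-fold (−0.94 ± 0.17, adjusted p = 0.00554), as did its other probe, 11049 bases away (−0.76, adjusted p = 0.00745). Its call was lost without array 3, and the scanner software put it at −1.54. Gpc2, known from the developing nervous system, read 0.58, 0.30 and 0.40 and rose 1.34-fold (0.43 ± 0.15, adjusted p = 0.0462). That call was lost without array 2 or 3, with median centring and when both channels had to be above background. Gpc3 was above background on 1 array in the wild-type channel only, and Gpc5 on none.

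Gpc4 was the second carrier whose probes differed. The brightest probe read −0.01, 0.06 and 0.07 (mean 0.04 ± 0.05, 95% interval −0.19 to 0.27, adjusted p = 0.806), and by the rule for genes it stands for Gpc4, which was not called. The other probe read −0.50, −0.73 and −0.37 and fell (mean −0.53 ± 0.18, adjusted p = 0.0308). The difference was 0.57 with an SD of 0.19, of 1 sign on all arrays. The probes lie 1999 bases apart on the minus strand.
Gpc4 brightest probe, chrX:48297838-48297897, minus strand, bases 31 to 60: aactgtagttagttgtgcattggtgatctt
Gpc4 other probe, chrX:48295779-48295838, minus strand, bases 31 to 60: tacttggtagaaacgaatctggtctccaaa
Which transcripts hold each stretch was not analysed here.

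Over all members, 16 genes had at least 2 tested probes, which gave 22 comparisons of the brightest probe with another. The sign was the same in 18 and the call in 19, and none was called in opposite directions. Apart from Chst12, only the Sulf2 pair overlapped, by 40 bases.

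**Figure D3:**
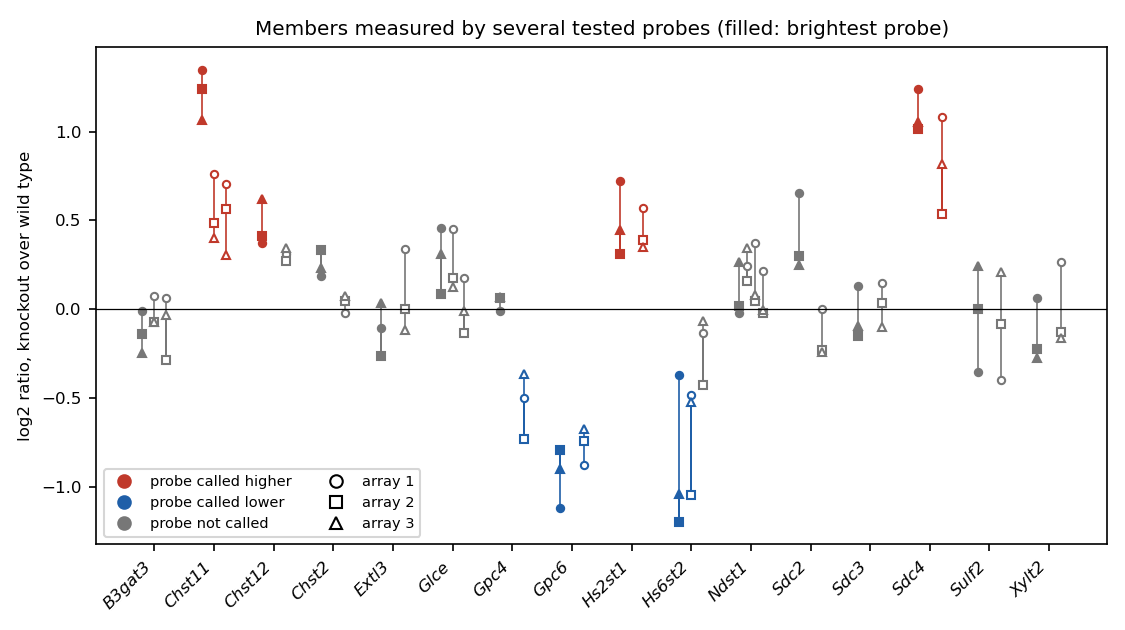
Log2 ratio (knockout over wild type) of every tested probe of the 16 members with several; each marker is 1 array, filled markers are the brightest probe and colour is the call of that probe. The probes of Sdc2 and Gpc4 lie about 0.56 and 0.57 apart, whereas all 3 Chst11 probes lie above 0.

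Of the 14 members not tested, 12 were above background in neither channel on any array with any probe. The exceptions were Gpc3 and Ndst3, each above it on 1 wild-type array. Among the 12 were B3gat1, B3gat2, Chst8 and Chst9, whose enzymes act mainly outside the pathway. Chst10, the one tested gene of that kind, had −0.18 (adjusted p = 0.392). Of the 27 tested members that did not pass, 26 had a 95% interval within 1 of 0 on the log2 scale and 17 within 0.5.

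Chst7, Hs6st2, Gpc4 and Gpc3 lie on the X chromosome. The nearest probes of Hs6st2 and Gpc4 are 0.374 Mb apart, and those of Gpc4 and Gpc3 0.219 Mb. The channels differed in Xist as given above. Of 443 X-linked genes tested 21 rose and 66 fell, and the fallers were 14.9% there against 11.3% of the other genes. Without the X-linked members, 6 members rose, 6 fell and 6 changed at least 2-fold. No member lies on chromosome 17, which holds Pim1.

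The other genes of the pathway were taken from lists of 66 genes, of which 57 were tested, 6 rose and 12 fell, with a median of 0.02. Of all genes tested, 8.66% rose and 11.4% fell. Of 14 tested genes that supply sugar nucleotides, sulfate and its donor, 1 rose and 2 fell. Gfpt2, an entry enzyme of hexosamine synthesis, rose 3.04-fold (log2 ratio 1.60 ± 0.25, limma adjusted p = 0.0017). Slc35d1, which carries nucleotide sugars into the endoplasmic reticulum, fell (−0.76, adjusted p = 0.00852), as did Ugdh, which makes UDP-glucuronic acid (−0.63, adjusted p = 0.0286). Of the 6 further linkage and chondroitin genes, B3galt6, which adds the second linkage galactose, rose (0.76 ± 0.38, adjusted p = 0.0322) and Pxylp1, a phosphatase of the linkage xylose, fell (−0.53, adjusted p = 0.0499). The calls of Slc35d1, Ugdh, B3galt6 and Pxylp1 were lost without array 2 or array 3.

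Among 14 tested core proteins other than syndecans and glypicans, 3 rose and 5 fell. Acan, the chondroitin and keratan sulfate proteoglycan aggrecan, fell 6.91-fold (log2 ratio −2.79 ± 0.30, adjusted p = 0.000479), and Cspg4, a membrane chondroitin sulfate proteoglycan that is also in the smooth muscle and pericyte list, fell 5.93-fold (−2.57 ± 0.25, adjusted p = 0.000464; −1.83 as the mean of its probes). Col18a1, a heparan sulfate collagen of basement membranes, fell 2.50-fold (−1.32, adjusted p = 0.00431). Dcn, the small dermatan sulfate proteoglycan decorin and a fibroblast marker, rose 6.51-fold but varied between arrays, at 1.68, 3.59 and 2.84 (adjusted p = 0.00801), and was not called without array 3.

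Of 13 breakdown enzymes none rose and 2 fell, the lysosomal sulfatases Ids (−1.02, adjusted p = 0.03), which is X-linked, and Sgsh (−0.44, adjusted p = 0.0406). Of 10 partners and shedding enzymes 1 rose and 2 fell. Furin, a proprotein convertase, rose (0.59, adjusted p = 0.017), while the convertases Pcsk6 (−0.83, adjusted p = 0.00631) and Pcsk5 (at least 1.32-fold lower, adjusted p = 0.0496) fell. All 5 calls were lost without array 2 or array 3. Median centring also ended the calls of Slc35d1, Ugdh, Pxylp1, Ids, Sgsh, Pcsk5 and Pcsk6. The scanner software's ratio ended those of Ugdh, Pxylp1 and Sgsh, and an offset of 0 those of Pxylp1 and Sgsh. The calls of B3galt6, Pxylp1, Ids and Pcsk5 were lost with no filter on dim probes, those of Pxylp1 and Pcsk5 with median pixel intensities, and those of Pxylp1 and Sgsh with the mean of a gene's probes. Pxylp1 was lost with flagged spots kept as well, and Sgsh with an intensity trend. The log2 ratio of Pcsk5, −0.42, became −1.29 with an offset of 0 and −2.40 with the scanner software's ratio. On no array did Pcsk5 exceed background in the knockout.

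The calls on the members themselves were uneven in how far they held. Chst1, Chst7, Gpc1, Sulf1, Hs3st1, Chst11 and Sdc4, which are the 7 members past 2-fold, were called under all 16 alternative settings and omissions of an array. The other 7 each lost the call in at least 1 of them. Aquantile normalisation between arrays, counted among the 16, leaves each ratio as it is and so adds no check. Without array 1, all 14 members were called and so were Chsy1, Hs6st1, Hs3st3b1, Papss2, Dse and Ust. In that setting 21.1% of all genes tested were called higher and 21% lower. Without array 2, 8 of the 14 were called and without array 3, 7 were.

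**Figure D4:**
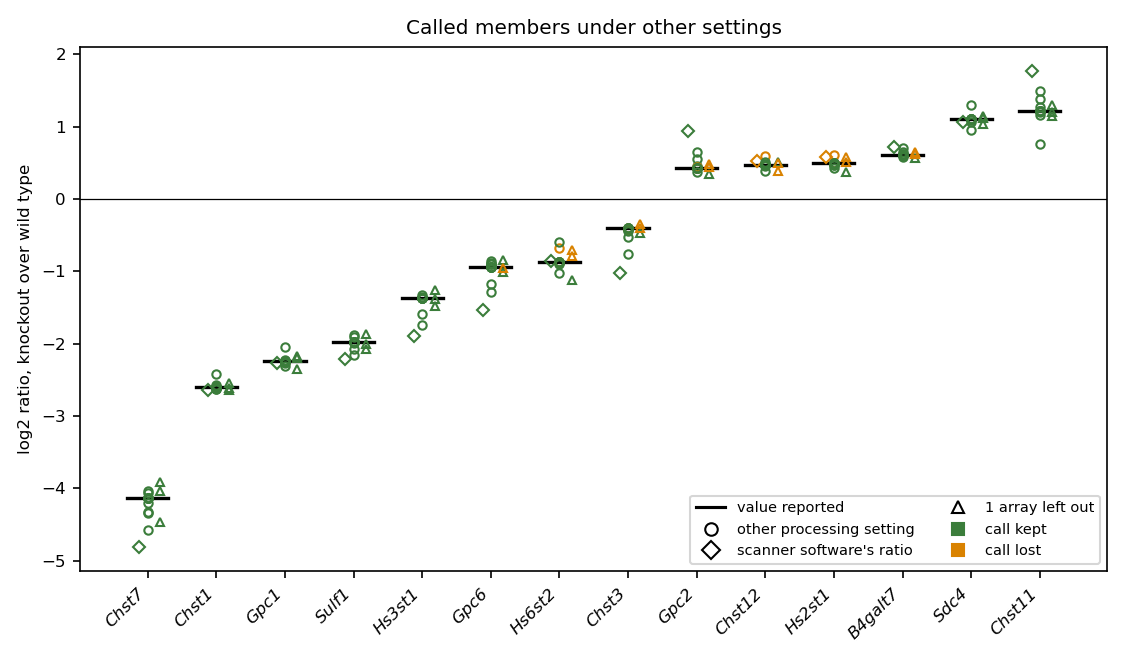
Log2 ratio (knockout over wild type) of the 14 called members in the main analysis (black bar) and under each alternative (points), with points of a lost call in a separate colour. The 7 members past 2-fold keep their call at each point. With the scanner software's ratio Chst7, Gpc6, Chst3 and Hs3st1 are among those that lie lower, and Chst11 and Gpc2 among those that lie higher.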

How the data were processed

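The deposited scanner files held mean pixel intensity and median local background intensity per spot and channel, and, per the file headers, a red-over-green ratio on the log10 scale. Per the submitters' processing notes they came from Agilent Feature Extraction 9.5.3.1. The deposited value table held the same log10 ratio. All 3 arrays came from 1 slide. Of 45018 spots per array 1639 were controls. No spot was saturated, 53.8% to 62.6% of probes lay well above background, and array 1 correlated less with arrays 2 and 3 (r = 0.681 and 0.699 across probes) than they did with each other (0.905).

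Background was corrected with normexp (offset 50, which pulls dim probes towards 0) and ratios were normalised by loess within arrays. Flagged spots were left out and spots of a probe averaged, giving 41174 probes. The 25090 tested probes entered 1 fit in limma 3.58.1 (R 4.3.3, lmFit and eBayes of the mean log2 ratio against 0), with Benjamini-Hochberg adjustment and a threshold of 0.05. Errors after ± are SDs over 3 arrays, whose number limits the precision. Channel values came from Aquantile normalisation. A gene took its brightest tested probe on its own strand. All 87 member probes were named through the RefSeq GRCm38.p6 table, and 2 antisense probes (of Extl1 and Papss2) were left out.

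Named were all called members, all syndecans and glypicans, members with a bound, and up to 4 called genes per other list. The remaining members are given so that each is accounted for. Members, lists and tests were chosen with earlier results of these data known, and the procedure was tested on simulated data. Alternatives were no background subtraction, offset 0, median pixels, the software's ratio, median centring, between-array scaling, Aquantile, no filter, a filter on both channels, keeping flagged spots, array weights, robust variances with an intensity trend, the mean of a gene's probes, an adjusted p of 0.01, and leaving out each array.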

Additional observations from a re-analysis of the deposited data

How the results depend on the processing

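Of 288 recomputed values of the called members and of the uncalled syndecans and glypicans, 262 kept their side of the threshold and 26 lost the call, while 4 values of uncalled members and no value of a called one changed sign. The 288 include those with Aquantile, which leaves each ratio as it is. The count of members higher in the knockout, 6, became 3 with median centring and 2 with an adjusted p under 0.01. The count of members changed at least 2-fold, 7, became 11 with the scanner software's ratio. In the other direction, the log2 ratio of Chst11 went as low as 0.76 among the alternatives and that of Sdc4 as low as 0.96. Both values are under 2-fold, although the calls were kept. Leaving out 1 array gave 2 to 8 members higher, 5 to 12 lower, 7 to 8 changed at least 2-fold, and 5 to 32 other pathway genes called beside 18 with all arrays. Over all genes, 2704 calls became 5555, 708 and 617 without replicates 1, 2 and 3, 1860 with median centring and 4413 with array weights. The cause of these shifts was not tested. The recomputation of the other pathway genes and of all genes was added after seeing the data. The ratio within each array already pairs the genotypes in the main test. No paired analysis was possible because, beyond that pairing, the labels give 1 group of arrays and so no further replicate block. A slide term was not run, since all arrays share 1 slide. Dim members limit the rest: 12 members were above background nowhere, and bounds cover Hs3st3b1.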
